A study of Mus musculus with 6 samples.

Results

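The genes examined here are 9 core genes of the Hedgehog signalling pathway, measured by messenger RNA sequencing in the ureteric epithelium of the embryonic mouse kidney. The set was chosen by name: Shh, Ihh, Ptch1, Smo, Gli1, Gli2, Gli3, Hhip and Sufu. All 9 were among the 21456 gene symbols with values, and 8 of them passed a minimum mean of 1 RPKM (reads scaled by transcript length and by the mapped reads of the library) and were tested. Shh, Ihh, Gli1 and Gli2 passed this minimum through the group in which they were high, and Hhip did not pass it.

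The ureteric epithelium is the branching tree that becomes the collecting ducts. Tip cells carried both a red Wnt11 reporter and a green Hoxb7 reporter (Wnt11RFP+;Hoxb7GFP+), and stalk cells carried the green reporter without the red one (Wnt11RFP-;Hoxb7GFP+). All came from CFW mice at embryonic day E16.5, with 3 libraries per group, and the stalk group holds any Hoxb7 reporter cell that lacks the Wnt11 reporter. Nothing in the labels ties a library to its own animal or litter. The p-values therefore measure only how far these samples spread, and that spread could be technical.

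Hedgehog ligands are secreted proteins that bind the membrane protein Ptch1. Without ligand, Ptch1 holds the membrane protein Smo inactive, and Gli2 and Gli3 are restrained by Sufu and partly processed into repressors at the primary cilium. With ligand, Smo is released and Gli factors switch on target genes, among them Gli1, Ptch1 and Hhip, which serve as readouts of the pathway. In the developing urinary tract Shh is known to be made by epithelium of the ureter and medullary collecting ducts and to act on the surrounding mesenchyme, while loss or truncation of Gli3 alters kidney branching.

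The ligand genes Shh and Ihh were higher in stalk, and the transcription factor genes Gli1, Gli2 and Gli3, the transducer gene Smo and the inhibitor gene Sufu were higher in tip. Ptch1 overlapped between the groups and did not pass the test. The test called 7 of the 8 members, 5 of them for tip and 2 for stalk. It called 48.6% of all 12532 genes tested, 26.1% for tip and 22.5% for stalk. With a log2 fold change of at least 1 as well, 4 members were called for tip (8.24% of all genes) and 2 for stalk (8.87% of all genes), of 17.1% in either direction. The groups did not overlap for 7 of the 8 members and for 57.8% of all genes. Shh, Ihh, Gli1 and Gli2 passed the minimum through the group in which they were high, so these counts are tied to that direction. The median log2 fold change was 0.82 over the tested members and 0.05 over all genes. Calls are those of limma on log2(RPKM + 1) at a Benjamini-Hochberg adjusted p under 0.05 over all genes. Fold changes are tip minus stalk on that scale, which understates the change of low genes.

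**Figure D1:**
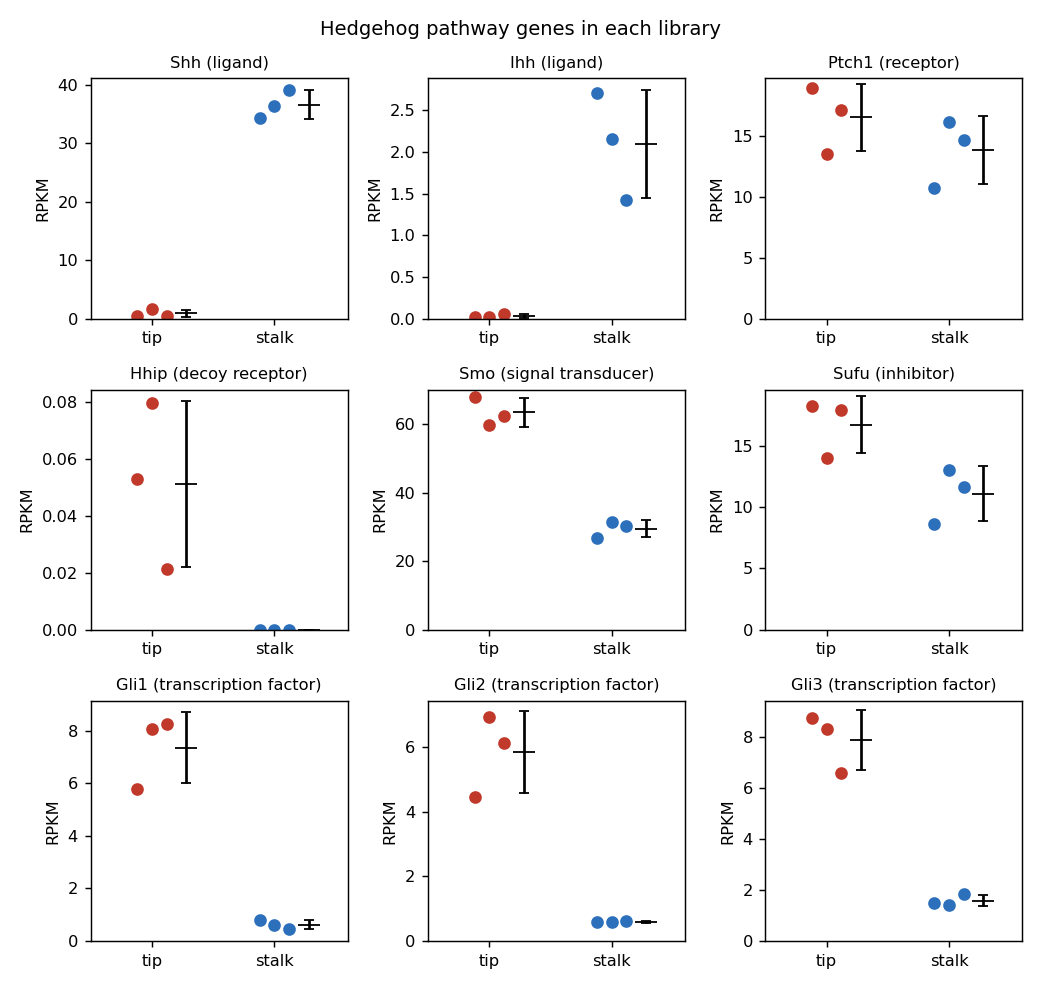
RPKM of each Hedgehog member in the 3 tip libraries (red) and the 3 stalk libraries (blue), with the mean and SD in black beside each group and a separate axis for each gene. Shh and Ihh lie higher in stalk, Gli1, Gli2, Gli3, Smo and Sufu lie higher in tip, the groups overlap for Ptch1, and Hhip does not exceed 0.0797 RPKM.

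Sequence before the start of the gene was available for 7 of the 9 members in the RefSeq promoter table (GRCm38.p6). The 250 bases before the start are shown for 4 of them, since Ihh was higher in stalk, Smo and Gli2 were higher in tip and Ptch1 was not called. The windows are chr1:74951673-74951922 on the minus strand for Ihh, chr13:63565736-63565985 on the minus strand for Ptch1, chr6:29735247-29735496 on the plus strand for Smo and chr1:119053620-119053869 on the minus strand for Gli2. The Ptch1 window ends at the RefSeq start, which lies inside the GENCODE span of the gene. The windows run 5′ to 3′ along the gene's strand, and capitals mark CpG dinucleotides.
Ihh: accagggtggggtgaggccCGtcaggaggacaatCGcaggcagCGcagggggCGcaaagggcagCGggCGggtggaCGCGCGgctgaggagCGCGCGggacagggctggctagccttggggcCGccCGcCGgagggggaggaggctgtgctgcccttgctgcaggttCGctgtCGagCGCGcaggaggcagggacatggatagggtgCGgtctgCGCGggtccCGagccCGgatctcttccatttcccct
Ptch1: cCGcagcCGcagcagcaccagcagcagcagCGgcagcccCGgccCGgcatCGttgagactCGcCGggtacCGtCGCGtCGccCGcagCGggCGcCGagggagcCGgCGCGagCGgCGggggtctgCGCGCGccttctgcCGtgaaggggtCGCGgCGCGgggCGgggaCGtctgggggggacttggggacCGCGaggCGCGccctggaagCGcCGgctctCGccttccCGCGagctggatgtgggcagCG
Smo: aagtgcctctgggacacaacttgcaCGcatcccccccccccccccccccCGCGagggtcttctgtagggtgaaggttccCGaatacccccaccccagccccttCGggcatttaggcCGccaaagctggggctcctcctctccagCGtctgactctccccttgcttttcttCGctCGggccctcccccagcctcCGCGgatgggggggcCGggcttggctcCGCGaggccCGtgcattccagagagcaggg
Gli2: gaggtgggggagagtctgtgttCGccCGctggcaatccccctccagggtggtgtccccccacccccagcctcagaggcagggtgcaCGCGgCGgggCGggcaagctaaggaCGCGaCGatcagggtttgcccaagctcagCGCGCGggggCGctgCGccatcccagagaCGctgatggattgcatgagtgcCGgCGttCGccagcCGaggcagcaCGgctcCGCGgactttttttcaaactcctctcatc

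All of these windows held more CpG than the median window, whatever the direction of the gene's change. Ptch1 had 41 CpG dinucleotides, a number reached by 1.09% of the 32851 windows in the table. Ihh had 24 (reached by 12% of windows), Gli2 had 22 (14.8%) and Smo had 15 (27.3%), against a median of 6. Over the 7 members the number ranged from 8 in Sufu to 41 in Ptch1. The Gli binding motif TGGGTGGTC was searched on both strands (GACCACCCA on the other). It was found in 0 of the 7 member windows and in 0.225% of all windows, which says only that these letters are not in these 250 bases.

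Levels of all libraries and of cell type markers were examined before the members. RPKM summed to between 345123 and 366035 per library, which reflects the unit, and sequencing depth was unknown. The leading principal component (82.9% of the variance) set the groups apart. On the next one (9.21%), tip replicate 2 lay at -20.5 and stalk replicate 1 at -25.0, away from the remaining libraries at 7.72 to 18.5. All 10 ureteric epithelium markers were tested, and 2 were higher in tip and 5 in stalk, beside 26.1% and 22.5% of all genes. Their summed level was 1450 to 1850 RPKM in tip, against 2850 to 3500 RPKM in stalk, led by Krt18 and Krt8. Markers of stroma and smooth muscle, the classical Hedgehog responding cells, summed to 8.32 to 30.0 RPKM in tip, against 13.1 to 41.9 RPKM in stalk. The highest sums were in the libraries that lay apart, 30.0 RPKM in tip replicate 2 and 41.9 RPKM in stalk replicate 1. Tagln alone held 20.1 RPKM and 34.2 RPKM of them, so these high sums mostly reflect 1 gene. Of these 12 markers 5 were tested and 0 were called by limma, 0 also at an unadjusted p under 0.05 (the lowest was 0.305). Tagln and Acta2 were the highest in level, Tbx18 did not exceed 1.1e-13 RPKM, Myh11 0.0631 RPKM and Foxd1 0.554 RPKM. Among those not tested, only Pdgfra had no overlap, at 0.323, 0.356 and 0.222 RPKM in tip and at 0.152, 0.146 and 0.118 RPKM in stalk. Dcn averaged higher in stalk (0.245 RPKM in tip, against 0.510 RPKM in stalk), with overlap.

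**Figure D2:**
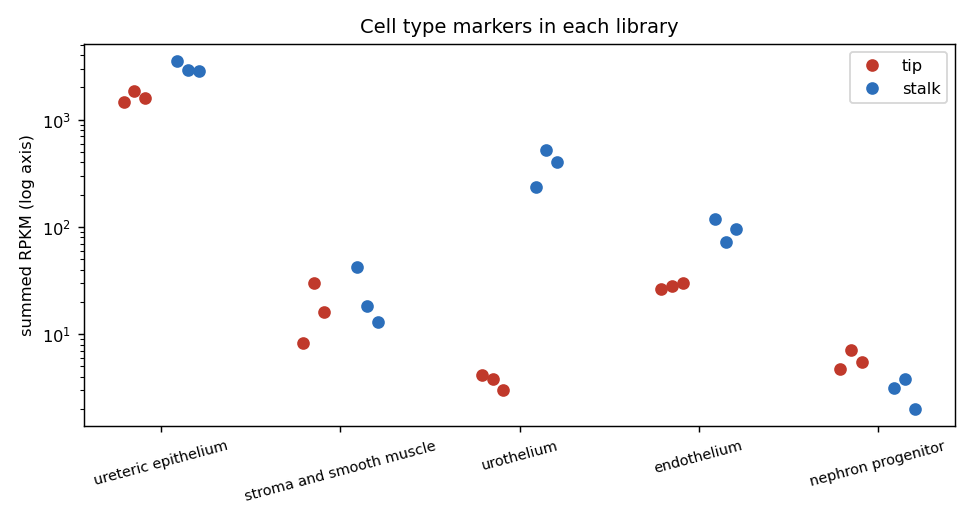
Summed RPKM (log axis) of 5 lists of cell type markers in each library, with the 3 tip libraries in red to the left of the 3 stalk libraries in blue. Urothelial and endothelial sums are higher in every stalk library, nephron progenitor sums are higher in every tip library, and the groups overlap for stroma and smooth muscle.

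Shh, which encodes Sonic hedgehog, had the largest change of the tested members on the log2(RPKM + 1) scale (chromosome 5, 28456815 to 28467256, minus strand, mm10). It stood at 0.528, 1.61 and 0.507 RPKM in the tip libraries and at 34.2, 36.4 and 39.1 RPKM in the stalk libraries. Every stalk library lay far above every tip library, and tip replicate 2 was the highest of its group. Of the ureteric epithelium markers called for stalk, Krt8, Krt18, Cdh1 and Cdh16 were likewise highest of the tip libraries in replicate 2, and Gata3 was lowest there. Krt8 stood at 85.0, 260 and 108 RPKM in the tip libraries, and Gata3 at 44.6, 31.9 and 46.9 RPKM. Urothelial markers summed to 4.20, 3.83 and 3.01 RPKM in them. The mean of Shh was 0.882 ± 0.631 RPKM in tip, against 36.6 ± 2.43 RPKM in stalk (SD, n = 3 each), a 41.4-fold ratio. The log2 fold change was -4.37 (SE 0.21, limma adjusted p = 5.7e-06). Of the 12532 genes tested, 33 had a lower log2 fold change. Without tip replicate 2 and stalk replicate 1 the value was -4.67 (limma adjusted p = 5.88e-06).

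Ihh, which encodes Indian hedgehog, the paralogous ligand (chromosome 1, 74945315 to 74951672, minus strand), was far below Shh in stalk. It stood at 0.0165, 0.0235 and 0.0566 RPKM in tip and at 2.71, 2.16 and 1.42 RPKM in stalk. All stalk libraries were above all tip libraries, where the gene was close to 0. The log2 fold change of -1.57 (SE 0.20) passed the test (limma adjusted p = 0.000374). The size depends on the scale, at -4.02 with a pseudocount of 0.1 and -2.63 on the TPM scale. Its mean over all libraries was 1.07 RPKM, just above the minimum for testing, and without any 1 of the stalk libraries it fell below that minimum and was not tested. The third ligand gene, Dhh (desert hedgehog), was under the minimum with all libraries, at 1.16, 0.494 and 0.927 RPKM in tip and 0.187, 0.108 and 0 RPKM in stalk. Its exons overlap those of Rhebl1 on the same strand and of a predicted gene on the opposite strand, so their reads may not be told apart.

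Urothelial and endothelial markers were higher in stalk along with both ligand genes. Urothelial markers summed to 3.01 to 4.20 RPKM in tip, against 236 to 522 RPKM in stalk, with 6 of 7 tested genes higher in stalk. Upk3a, a urothelial plaque gene, stood at 0.0231 ± 0.0399 RPKM in tip, against 221 ± 61.6 RPKM in stalk, and Fxyd3 at 0.852 ± 0.644 RPKM in tip, against 48.5 ± 18.3 RPKM in stalk. Within stalk, the urothelial sum differed 2.21-fold between its highest and lowest library, and Shh differed 1.14-fold. Ihh was at 2.71, 2.16 and 1.42 RPKM in stalk replicates 1 to 3, where the urothelial sum was 236, 522 and 405 RPKM. Endothelial markers summed to 26.4 to 29.9 RPKM in tip, against 71.8 to 118 RPKM in stalk, with 10 of 10 higher in stalk and Egfl7 and Plvap the highest in level. Of all genes tested, 22.5% were called for stalk. All endothelial markers but Plvap, Cldn5 and Egfl7, and all 6 called urothelial markers, passed the minimum through stalk, so these counts are tied to that direction. The part of urothelial and endothelial cells in the difference in Shh and Ihh was not tested. In such bulk samples, fewer cells of a type and less RNA per cell cannot be told apart.

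Of 6 listed genes for a further ligand and for ligand processing and release, 3 were tested, 1 was higher in tip and 1 in stalk, with a median log2 fold change of -0.12, beside 26.1% and 22.5% of all genes. Scube3, from a family of secreted proteins that help to release Hedgehog ligands from the cell surface, stood at 12, 23.9 and 19.8 RPKM in tip and at 116, 138 and 140 RPKM in stalk. The groups were widely separated, with a difference of -2.81 log2 units (SE 0.22, limma adjusted p = 3.17e-05) and a 7.09-fold ratio. Its family members Scube1 and Scube2 did not exceed 0.403 RPKM and 0.314 RPKM in any library and were not tested. Disp1, the membrane transporter that releases the ligand, was at 3.94 ± 0.274 RPKM in tip, against 2.85 ± 0.118 RPKM in stalk. Its log2 fold change of 0.36 lay at the threshold (limma adjusted p = 0.0496) and kept its call in 1 of 14 alternatives (range of adjusted p 0.0229 to 0.413). Hhat, the acyltransferase that attaches palmitate to the ligand, did not pass (-0.12, 95% interval -0.57 to 0.33, limma adjusted p = 0.649).

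Ptch1, the ligand receptor and also a target gene of the pathway (chromosome 13, 63508328 to 63573598, minus strand), was detected in all 6 libraries. It stood at 18.9, 13.5 and 17.1 RPKM in tip and at 10.7, 16.1 and 14.6 RPKM in stalk. The groups overlapped, with tip replicate 2 below stalk replicates 2 and 3. The log2 fold change was 0.25 (95% interval -0.15 to 0.65, limma adjusted p = 0.272). The 95% interval holds no difference in either direction of 1 log2 unit or more.

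Co-receptor genes were divided between the groups. Gas1, a membrane-anchored co-receptor, stood at 18.4, 16.0 and 24.8 RPKM in tip and at 3.82, 6.02 and 4.99 RPKM in stalk, a 3.99-fold ratio (log2 fold change 1.80, SE 0.19, limma adjusted p = 0.000153). Cdon, a co-receptor of the immunoglobulin superfamily, was higher in stalk, at 8.15 ± 0.801 RPKM in tip, against 12.2 ± 0.0236 RPKM in stalk (-0.53, limma adjusted p = 0.00504). Its relative Boc was not called (-0.10, 95% interval -0.45 to 0.24, limma adjusted p = 0.604). The endocytic receptor gene Lrp2 was under the minimum.

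Hhip, a decoy receptor that binds the ligand and a target gene (chromosome 8, 79965851 to 80058006, minus strand), was close to 0 throughout. It was listed at 0.0529, 0.0797 and 0.0215 RPKM in tip and at 0 in all 3 stalk libraries. These levels were under the minimum for testing. With no minimum, its log2 fold change of 0.07 did not pass (limma adjusted p = 0.0888).

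Smo, the transducer that Ptch1 holds inactive (chromosome 6, 29735503 to 29761365, plus strand), was the most abundant member in tip. It stood at 68.1, 59.9 and 62.4 RPKM in tip and at 26.9, 31.5 and 30.3 RPKM in stalk. The groups were well apart, with a 2.15-fold ratio and a difference of 1.08 log2 units (SE 0.10, limma adjusted p = 7.11e-05). Sufu, which binds and restrains Gli proteins (chromosome 19, 46396896 to 46488804, plus strand), stood at 18.2, 14.0 and 17.9 RPKM in tip and at 8.63, 13.0 and 11.6 RPKM in stalk. The lowest tip library was only slightly above the highest stalk library. Its log2 fold change of 0.56 (SE 0.17) passed the test (limma adjusted p = 0.0237, range over its alternatives 0.00965 to 0.0849). It did not pass without tip replicate 1 (0.50, adjusted p = 0.0849), without tip replicate 3 (0.51, adjusted p = 0.0804) or without stalk replicate 1 (0.41, adjusted p = 0.0528) in the limma fit. The call was also lost with the replicate block (limma adjusted p = 0.058) and with no minimum (limma adjusted p = 0.0667).

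All genes of the Gli transcription factor family were higher in tip. Gli1, the activator whose own transcription is a readout of the pathway (chromosome 10, 127329882 to 127341974, minus strand), stood at 5.78, 8.04 and 8.24 RPKM in tip and at 0.781, 0.609 and 0.450 RPKM in stalk. No tip library came near a stalk library, and the ratio of means was 12-fold (log2 fold change 2.36, SE 0.18, limma adjusted p = 2.57e-05). An exon of Arhgap9 on the opposite strand overlaps Gli1, and the use of strand in counting is not given in the sources used here, so reads of the pair may not be told apart. Arhgap9 was at 2.02, 1.28 and 1.66 RPKM in tip and at 0.231, 0.324 and 0.157 RPKM in stalk.

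Gli2, the main activator in most tissues (chromosome 1, 118834132 to 119053619, minus strand), stood at 4.45, 6.93 and 6.14 RPKM in tip and at 0.571, 0.584 and 0.629 RPKM in stalk. The stalk libraries were nearly equal to each other and far below all tip libraries, a 9.82-fold ratio (2.08, SE 0.18, limma adjusted p = 4.57e-05). Gli3, the main source of Gli repressor (chromosome 13, 15463235 to 15730026, plus strand), stood at 8.75, 8.30 and 6.56 RPKM in tip and at 1.5, 1.42 and 1.82 RPKM in stalk. It had the smallest ratio of the family at 4.98-fold, and its groups did not overlap (1.78, SE 0.15, limma adjusted p = 5.02e-05). Of all genes tested, 98 had a higher log2 fold change than Gli1, 149 than Gli2 and 271 than Gli3. Exons of predicted genes on the opposite strand overlap those of Shh, Hhip and Gli3, and no value of these is given here.

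The family's makeup also differed. Of the summed Gli RPKM, Gli3 made up 46.1%, 35.7% and 31.3% in the tip libraries and 52.6%, 54.4% and 62.8% in the stalk libraries. Gli1 made up 30.4%, 34.5% and 39.3% in tip and 27.4%, 23.3% and 15.5% in stalk. Gli2 ranged from 23.5% to 29.8% in tip and from 20.0% to 22.4% in stalk. The groups overlapped for none of the 3 shares, with that of Gli3 lower and those of Gli1 and Gli2 higher in every tip library. The sum itself was 19.0 to 23.3 RPKM in tip, against 2.61 to 2.90 RPKM in stalk. These shares describe the same RNA levels per length as the fold changes of the 3 genes and are no separate result. They say nothing of activator or repressor protein.

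Gli1 and Ptch1, both used as readouts of the pathway, were set against each other within each library. log2(RPKM + 1) of Gli1 minus that of Ptch1 was -1.55, -0.69 and -0.97 in tip and -2.72, -3.41 and -3.43 in stalk. These differences describe the same values as the fold changes of the pair and are no separate result.

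**Figure D3:**
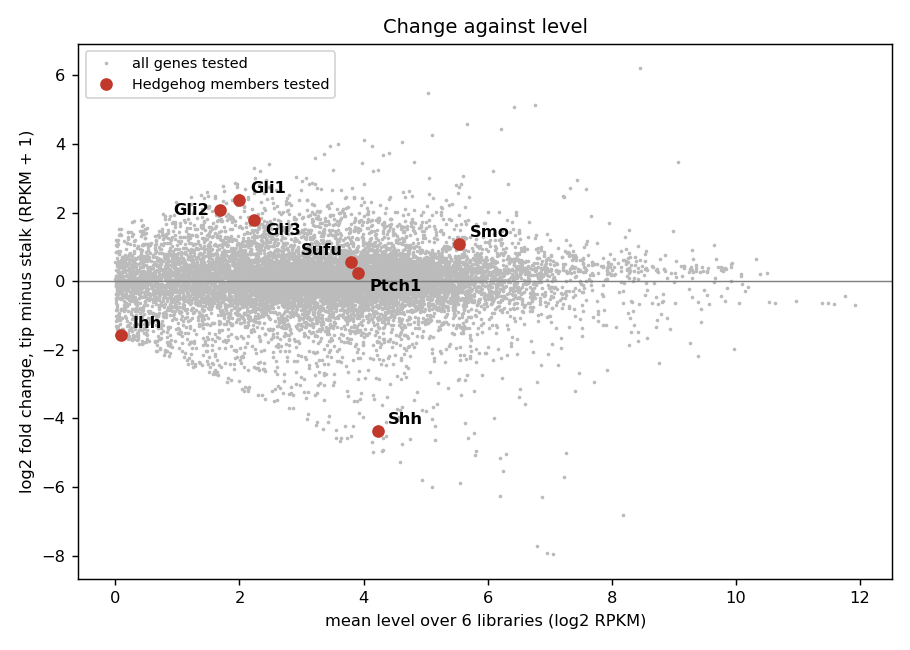
Log2 fold change (tip minus stalk, of RPKM + 1) against mean level (log2 RPKM over 6 libraries) for all 12532 genes tested in grey, with the 8 tested Hedgehog members in red. Shh lies low at -4.37, Gli1 lies near the upper edge for its level at 2.36, and Ptch1 and Sufu lie within the bulk of genes.

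The order of the members by RPKM differed between the groups. In all 3 tip libraries Smo was highest, followed by Ptch1 and Sufu, whose order changed between libraries and whose levels did not differ beyond their spread (16.5 ± 2.73 and 16.7 ± 2.38 RPKM). Gli3, Gli1 and Gli2 came next at 7.87 ± 1.15, 7.35 ± 1.37 and 5.84 ± 1.27 RPKM, with overlapping ranges between neighbours, and Shh, Ihh and Hhip came last. In all 3 stalk libraries Shh was highest, followed by Smo, Ptch1 and Sufu. Shh at 36.6 ± 2.43 and Smo at 29.6 ± 2.37 RPKM did not overlap there, while Ptch1 at 13.8 ± 2.78 and Sufu at 11.1 ± 2.23 RPKM did. Ihh and Gli3 followed at 2.10 ± 0.647 and 1.58 ± 0.210 RPKM, overlapping each other, then Gli1 and Gli2 at 0.613 ± 0.166 and 0.595 ± 0.0301 RPKM, and Hhip at 0.

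Shh, Ihh, Ptch1, Smo and Gli1 each had 1 row in the table. Several rows, without transcript identifiers, were listed for Gli2, Gli3 and Sufu. The leading row carried 92.2% to 99.2% of Gli2 in tip and 96.5% to 100% in stalk. For Gli3 it carried 83.2% to 87.4% in tip and 82.6% to 96.6% in stalk, and for Sufu 81.1% to 87.8% in tip and 79.6% to 89.8% in stalk. A single row therefore set most of each gene's level in both groups.

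Among 24 listed regulators of Gli processing, all tested, 4 were higher in tip and 1 in stalk, with a median log2 fold change of 0.12. The called share was below the 48.6% called over all genes. Evc, a ciliary protein that acts with Smo, stood at 12.3, 10.8 and 12.6 RPKM in tip and at 2.46, 6.21 and 4.38 RPKM in stalk (1.33, SE 0.24, limma adjusted p = 0.00251). Its neighbour and partner Evc2 was also higher in tip (0.54, limma adjusted p = 0.0172), a call lost without tip replicate 1 (adjusted p = 0.0538), tip replicate 3 (adjusted p = 0.062) or stalk replicate 3 (adjusted p = 0.0604). Gpr161, a ciliary receptor that restrains the pathway, stood at 5.09 ± 0.730 RPKM in tip, against 1.78 ± 0.196 RPKM in stalk (1.13, SE 0.15, limma adjusted p = 0.000482). Kif7, the ciliary kinesin that binds Gli proteins, stood at 3.52 ± 0.0603 RPKM in tip, against 1.6 ± 0.648 RPKM in stalk (0.83, limma adjusted p = 0.00859), and its exons overlap those of Ticrr on the opposite strand. The kinase gene Ulk3 was the gene higher in stalk (-0.46, limma adjusted p = 0.0444, range over its alternatives 0.0258 to 0.147), and kept its call in 5 of 14 alternatives.

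The other 19 regulators did not pass the test. The protein kinase A genes Prkaca, at 49.1 ± 0.902 RPKM in tip, against 49.3 ± 1.63 RPKM in stalk (-0.00, 95% interval -0.19 to 0.19), and Prkar1a (-0.08, 95% interval -0.34 to 0.18) were not called. Neither were the genes for ubiquitin ligase parts Spop, Spopl, Cul3 and Btrc, nor those for ciliary transport Ift88, Ift172, Kif3a and Dync2h1.

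Of 14 genes reported as Hedgehog targets, 7 were tested, 5 were higher in tip and 1 in stalk, with a median log2 fold change of 0.80. Of all genes tested, 26.1% were called for tip and 22.5% for stalk, and the 7 targets not tested were under the minimum. Mycn, a growth-promoting transcription factor, stood at 16.4, 17.9 and 12.8 RPKM in tip and at 1.28, 0.975 and 0.907 RPKM in stalk, a 14.9-fold ratio (3.02, SE 0.16, limma adjusted p = 7.87e-06). The cyclin genes Ccnd1 (2.81, limma adjusted p = 6.88e-05) and Ccnd2 (1.80, limma adjusted p = 1.27e-05) had no overlap between groups either. Ccnd2 was at 34.4 ± 3.51 RPKM in tip, against 9.15 ± 0.617 RPKM in stalk. These genes are known to answer other growth signals as well. Bcl2, a survival gene, and Rab34, a small GTPase gene, were higher in tip by 0.80 (limma adjusted p = 0.00119) and 0.38 (limma adjusted p = 0.0107), and the Rab34 call was lost when only the highest row per symbol was kept (limma adjusted p = 0.239). Sfrp1, a secreted Wnt inhibitor, was higher in stalk, at 3.09 ± 0.950 RPKM in tip, against 6.41 ± 0.623 RPKM in stalk (-0.88, limma adjusted p = 0.00483). Pax2 was not called (0.24, 95% interval -0.22 to 0.71, limma adjusted p = 0.349).

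Target genes known from Hedgehog responding mesenchyme were under the minimum for testing. Foxf1 was highest at 0.0164 RPKM, in a tip library, and Foxf2 at 0.124 RPKM, in a stalk library. Tshz3, a factor of ureteral smooth muscle, was at 0.252 ± 0.119 RPKM in tip, against 0.138 ± 0.0453 RPKM in stalk. Bmp4 was at 1.20 ± 0.135 RPKM in tip, against 0.747 ± 0.305 RPKM in stalk. Of the other targets under the minimum, Snai1 and Sall1 lay higher in tip without overlap. Snai1 was at 1.06 ± 0.219 RPKM in tip, against 0.406 ± 0.101 RPKM in stalk, and Sall1 at 0.682 ± 0.177 RPKM in tip, against 0.298 ± 0.061 RPKM in stalk. Foxl1 overlapped and was highest in a stalk library, at 0.363 RPKM. Nephron progenitor markers, from cells that touch the tips, summed to 4.77 to 7.10 RPKM in tip, against 2.01 to 3.79 RPKM in stalk. Both tested ones, Crym and Cited1, were higher in tip, beside 26.1% of all genes tested. Both passed the minimum through tip, with stalk means of 0.512 and 0.804 RPKM, so being tested was tied to that direction. Of the 6 not tested, Osr1 lay the other way without overlap, at 0, 0.0286 and 0.108 RPKM in tip and at 0.44, 0.72 and 0.446 RPKM in stalk, and Meox1 averaged 0.0551 ± 0.0492 RPKM in tip, against 0.238 ± 0.17 RPKM in stalk. Six2, the defining marker of those cells, stayed at or below 0.718 RPKM in every library. It lay higher in tip without overlap, at 0.513, 0.718 and 0.683 RPKM in tip and at 0.077, 0.356 and 0.00956 RPKM in stalk. The part of these cells in the level of the Gli genes was not tested.

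**Figure D4:**
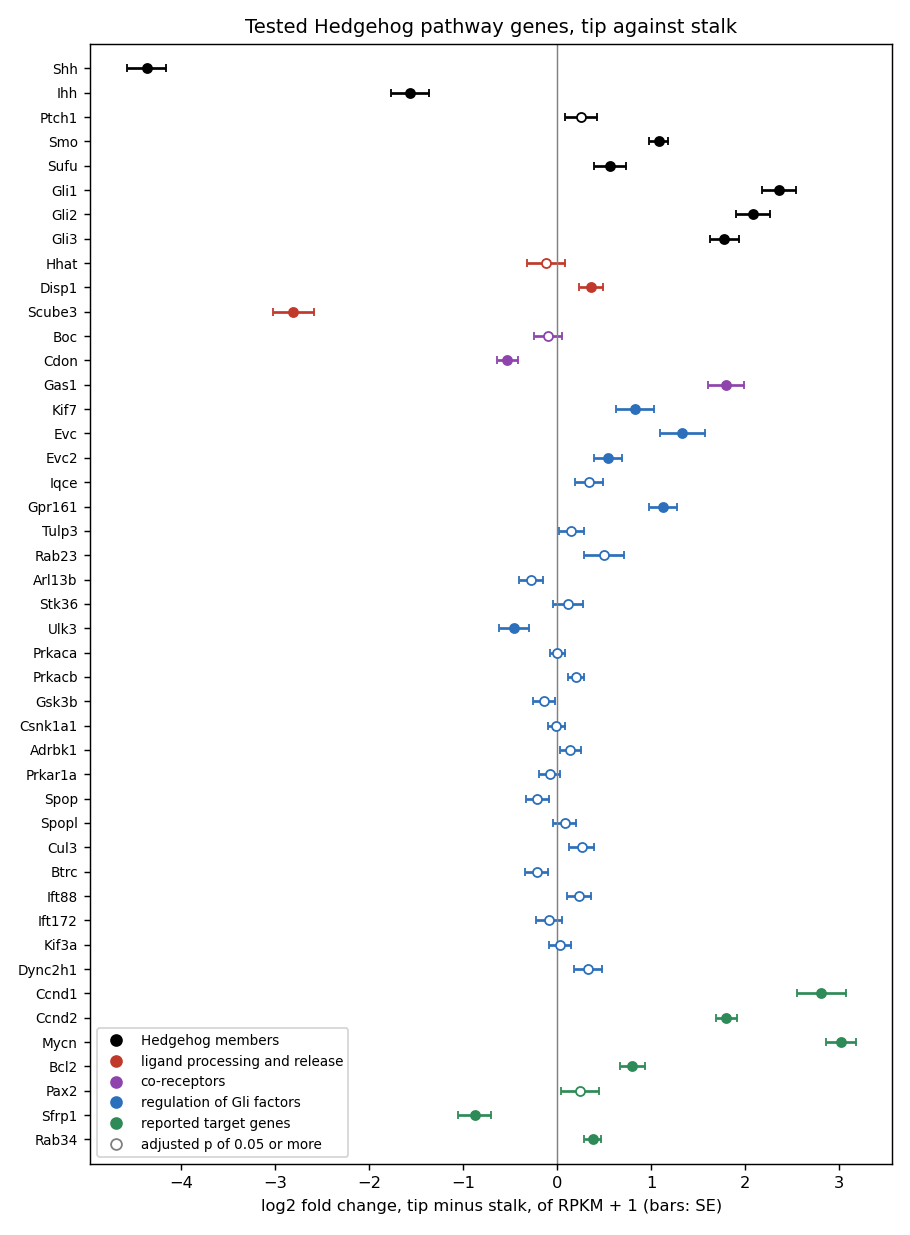
Log2 fold change (tip minus stalk, of RPKM + 1) with SE for the tested Hedgehog members and listed pathway genes, by list, with filled points for an adjusted p under 0.05. Genes not reported here are left out, although the counts over all other pathway genes include them. Shh, Scube3 and Ihh lie farthest toward stalk, Mycn, Ccnd1 and Gli1 farthest toward tip, and 19 of the 24 regulators of Gli factors have open points.

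Genes with a profile like that of Shh and of Ptch1 were sought by Pearson r of log2(RPKM + 1) over the 6 libraries, among 9155 other genes averaging 5 RPKM or more. The 5 closest to Shh were AA986860, Dopey2, Sorl1, Nedd4l and Wnt4, with r between 0.9991 and 0.9997. Since the libraries form separate groups, such an r mostly restates the difference between tip and stalk, and 957 genes exceeded 0.95. Wnt4, which encodes a Wnt ligand, averaged 2.54 RPKM in tip, against 45.5 RPKM in stalk. Among the closest to Ptch1, whose groups overlap, were Mrpl22, Gm53, Ibtk and Atf7ip, with r between 0.9893 and 0.9949, and 70 genes exceeded 0.95.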

How the data were processed

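Per the labels' protocols, a Qiagen micro kit was used for RNA and a stranded Kapa kit for the mRNA libraries. The values are RPKM computed by the authors, in 1 deposited table of 93615 rows. Per the submitters' processing notes, the build was mm10 and the tools included TopHat2, Partek and bcl2fastq 2.17. The annotation, how reads were counted and whether strand was used are not given in the sources used here. How the cells were separated is not given there either. Rows with a question mark in all 6 columns (24545) were dropped, and RPKM was summed over the rows of each symbol, which may mix reads of close paralogs and overlapping genes. Depth was unknown, so no counting interval is given.

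The 12532 genes averaging 1 RPKM or more were tested on log2(RPKM + 1) by limma 3.58.1 (R 4.3.3), two-sided, with a variance trend and no replicate block, with Benjamini-Hochberg adjustment over all of them and a threshold of 0.05. Intervals are 95% from the same fit. No ratio of means is given where a library was under 0.05 RPKM. Coordinates are from GENCODE for the same build, promoter windows from RefSeq. Replicate numbers were not used to pair libraries.

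Members and lists were chosen with earlier results of these data known. Named besides the members were listed pathway genes called with a log2 fold change of at least 1, otherwise the 3 highest in level, the 2 highest of each marker list, and the 5 genes most like Shh and Ptch1. Other genes named, the Gli shares and the within-library difference were chosen after values were seen. Some genes that this rule selects are not reported here. Alternatives changed the pseudocount, the minimum, the scaling, the rows per symbol, the variance model, the block and the libraries used.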

Additional observations from a re-analysis of the deposited data

How the results depend on the processing

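Shh, Ihh, Smo, Gli1, Gli2 and Gli3 kept their direction and call in every alternative in which they were tested, and Ptch1 remained uncalled in all 15. With 1 library left out, log2 fold changes ranged from -4.63 to -4.23 for Shh, -1.58 to -1.55 for Ihh, 2.28 to 2.51 for Gli1, 1.97 to 2.24 for Gli2, 1.70 to 1.89 for Gli3, 1.01 to 1.12 for Smo, 0.41 to 0.68 for Sufu and 0.09 to 0.38 for Ptch1. The range for Ihh covers only the 3 fits without a tip library, where the gene was close to 0, so it does not show the effect of its spread in stalk. A pseudocount of 0.1 gave -5.40 for Shh, -4.02 for Ihh and 3.39 for Gli1. Sufu kept a value of 0.56 but lost its call with no minimum (limma adjusted p = 0.0667), where 21456 genes were tested, and with the replicate block (limma adjusted p = 0.058). With a minimum mean of 5 RPKM, which removes Ihh and the Gli genes from testing, 2 members were higher in tip and 1 in stalk, and of the other pathway genes 7 were higher in tip and 2 in stalk, against 12 and 4 of 38 tested with the minimum of 1 RPKM. Over all genes, 2532 were then higher in tip and 2110 in stalk, against 3274 (26.1% of those tested) and 2815 (22.5%) with the minimum of 1 RPKM. Fewer genes were tested at the higher minimum, so the drop in these counts does not show a change in share. Without any 1 stalk library, 1 member was higher in stalk, because Ihh fell under the minimum. Over all libraries left out in turn, members called numbered 4 to 5 in tip and 1 to 2 in stalk. Without tip replicate 2 and stalk replicate 1 together, an alternative chosen after seeing the data, 5 members were higher in tip and 1 in stalk, with Sufu at 0.52, Gli1 at 2.37, Gli2 at 1.96, Gli3 at 1.72 and Smo at 1.05.

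Libraries of equal number did not deviate together (r = -0.303, -0.335 and 0.0933 across genes for numbers 1 to 3), and no library correlated best with its own number, so the numbers were not taken as pairs. With the replicate block, 2716 genes were higher in tip and 2380 in stalk, 4 members were higher in tip and 2 in stalk, and Ulk3 (limma adjusted p = 0.104) and Disp1 (limma adjusted p = 0.117) also lost their calls. Unknown depth limits what can be said of Hhip, Ihh in tip and the other genes near 0.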
